A study of Mus musculus with 12 samples.

Results

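The sections below describe how the response of muscle to loss of its nerve differed between the mouse strains BALB/c and C57BL/6. For each gene the quantity is the contrast (BALB/c right minus left leg) minus (C57BL/6 right minus left leg) on the log2(RPKM + 0.5) scale, where RPKM is a gene's read count per unit of transcript length and per unit of sequencing depth. A positive contrast, called higher here, means that the change in BALB/c lay above that in C57BL/6, whether the gene rose or fell, and a negative one is called lower. The gene was the unit: 9645 of the 25094 symbols listed in both tables had the same transcript and length in both and a mean of at least 1 RPKM in each table, and all 9645 were tested. RPKM values printed below were first divided by a median-of-ratios factor within each strain's table.

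The material was gastrocnemius, the large calf muscle, which is mostly fast-fibred in mice. Its polyadenylated RNA was sequenced from males labelled WT, of the strains C57BL/6 and BALB/c. In each mouse strain the right leg had its sciatic nerve cut, with both ends folded back and stitched to muscle, and the left leg was labelled healthy; ages are not given, and whether left legs received the sham exposure named in the protocol is not stated. Muscle was taken 2 weeks after surgery. The 4 groups (C57BL/6 left, C57BL/6 right, BALB/c left, BALB/c right) held 3 libraries each, 12 in all. Separate animals are not stated for the 3 libraries within a group; p-values therefore reflect only how these libraries vary, and that variation may be technical. The tables of the strains were normalized separately, so a level in one strain set beside a level in the other is a description only. Positions are in mm9, the annotation the file headers name.

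A motor nerve keeps a muscle fibre in its adult state through electrical activity and signals released at the synapse. When the nerve is lost, fibres turn on embryonic acetylcholine receptor subunits and other developmental genes through regulators such as myogenin, shrink through the ubiquitin ligases, proteasome and autophagy, and lose mitochondrial capacity. Fibre type genes, which set contraction speed and metabolism, also shift, and the connective tissue between the fibres is remodelled.

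The promoters of 4 called genes are shown first, as examples of the E box, CANNTG, which myogenin and related muscle regulators bind. Trim63 and Asb2 encode parts of ubiquitin ligases and were higher, and Csrp3 and Hspb7 encode a muscle LIM protein and a small heat shock protein and were lower. Each run holds the 250 bases before the first start listed in RefSeq's promoter table (GRCm38.p6), 5′ to 3′ on the gene's strand, with E boxes in capitals. Trim63 is at chr4:134314870-134315119 on the plus strand, Asb2 at chr12:103356002-103356251 on the minus strand, Csrp3 at chr7:48848052-48848301 on the minus strand and Hspb7 at chr4:141420529-141420778 on the plus strand.
Trim63: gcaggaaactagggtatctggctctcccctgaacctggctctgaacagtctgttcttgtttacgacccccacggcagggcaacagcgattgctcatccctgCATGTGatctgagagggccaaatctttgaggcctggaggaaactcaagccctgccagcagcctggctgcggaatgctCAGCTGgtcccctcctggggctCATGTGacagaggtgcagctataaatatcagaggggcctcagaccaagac
Asb2: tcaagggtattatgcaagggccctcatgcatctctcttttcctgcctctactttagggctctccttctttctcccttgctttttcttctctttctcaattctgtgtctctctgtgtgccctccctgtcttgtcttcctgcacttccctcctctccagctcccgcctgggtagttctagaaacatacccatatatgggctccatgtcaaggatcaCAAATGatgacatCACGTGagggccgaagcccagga
Csrp3: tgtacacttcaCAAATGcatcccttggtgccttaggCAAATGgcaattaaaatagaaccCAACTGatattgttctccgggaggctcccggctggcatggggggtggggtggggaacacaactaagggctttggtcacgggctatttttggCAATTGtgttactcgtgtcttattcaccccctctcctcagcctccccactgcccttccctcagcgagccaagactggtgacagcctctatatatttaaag
Hspb7: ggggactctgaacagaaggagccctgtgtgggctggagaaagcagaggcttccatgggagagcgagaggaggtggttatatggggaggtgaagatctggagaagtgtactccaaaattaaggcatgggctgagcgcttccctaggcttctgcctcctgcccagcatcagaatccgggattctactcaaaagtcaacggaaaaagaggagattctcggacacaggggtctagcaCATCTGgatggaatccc
The window of Trim63 held 3 matches, that of Asb2 2, that of Csrp3 4 and that of Hspb7 1. These 4 genes were picked after their values and their matches had been seen, from a search of called genes for 4 motifs on both strands, namely the E box, the CCAAT box, the letters TATAA and the CArG box, and other called genes had no E box. The share over whole sets is therefore the measure to read. CANNTG was present in 66.0% of the 27025 windows of this length in the table, in 56.6% of the 7591 that matched a tested gene by symbol, in 59.8% of 744 that matched a called gene, and in 9 of the 18 that matched a named gene called in every fit leaving out 1 library. The shares in tested and called genes were 36.4% and 35.6% for the CCAAT box, 12.1% and 11.7% for TATAA, and 1.3% and 1.5% for the CArG box. A match is only a run of letters in the window. Asb2 and Csrp3 have 2 listed starts each, and only the first is shown.

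Each library was scaled by 18132600 to 19282900 reads, with 14826931 to 17323388 reads in listed genes. Libraries of a group correlated at 0.972 or more across genes (Pearson), and no 2 libraries of a group were identical. The adult fast fibre gene Myh4, a defining marker of this muscle, was chosen for this check and was present in all 12 libraries, at 11506, 10451 and 10976 RPKM in the left and 1906, 926 and 1726 in the right legs of C57BL/6. Myh4 in BALB/c was at 12572, 7736 and 10339 in the left and 3835, 1596 and 2525 in the right legs. Some libraries stood apart. In BALB/c, left 1 had much lower values of slow fibre genes than left 2 and left 3, as for Myh7 (22.6 against 211 and 191 RPKM). Summed haemoglobin and other erythroid genes were 262 to 525 in the left and 260.1 to 334 in the right legs of C57BL/6, and 393 to 2658 in the left and 421 to 30859 in the right legs of BALB/c, with the high values in libraries 1 and 2 of both BALB/c legs. Summed Schwann cell markers ranged from 10.4 to 255 in the left legs of C57BL/6. The median over tested genes of the right minus left change was -0.0061 in C57BL/6 and 0.055 in BALB/c after the rescaling, and the median contrast was 0.060.

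Most genes called in both strains changed in the same direction, and a minority of tested genes had a called contrast. A gene without a called contrast is not thereby shown to respond alike in the strains. Of the 9645 genes, 936 had an adjusted p under 0.05 for the contrast in limma's fit over all genes, which is 9.7% of those tested. The lists were chosen with earlier results of these data known, and each list's percentage below is a description to be read beside this 9.7%. The glycolysis, FoxO, TGF-beta, heat shock, adipocyte and Schwann cell lists lie near it. Among them 546 (5.66% of all tested) were higher and 390 (4.04%) were lower. Within C57BL/6, 2706 genes (28.1%) rose and 2771 (28.7%) fell in the right leg, and within BALB/c 3175 (32.9%) rose and 2631 (27.3%) fell. Counts of list members that rose or fell are to be read beside these shares. Of 4132 genes called in both strains, 4060 (98.3%) changed in the same direction. The 2 strains' changes correlated across genes at r = 0.854 (Spearman's rho = 0.799), a description, since genes are not independent replicates.

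The split between higher and lower changed with the scaling. It was 546 to 390 here, 241 to 510 with the values as deposited, 77 to 698 after rescaling to a common sum (TPM) and 379 to 455 after quantile normalization. These scalings moved the median contrast over all genes from 0.060 to -0.11 (as deposited) and -0.30 (TPM), so a contrast is best read relative to the median gene. The count also rests on single libraries: it lay between 293 and 1275 when each library in turn was left out. The count fell by more than 1.5 times without C57BL/6 left 1 (535), left 2 (489), left 3 (400), right 2 (332) or right 3 (293), without BALB/c left 2 (514) or without BALB/c right 3 (495). Without both BALB/c left 2 and left 3, a setting chosen after seeing the data, 22 genes were higher and 14 lower. Of the 69 called genes named by the rule given with the processing, 42 lost their call with no filter on low genes and 12 with a filter of 0.1 RPKM in place of 1, while 27 kept their call in every fit that left out 1 library and 11 without both of those libraries. Among the 11 were Col10a1, Myl4, 2210011C24Rik, Perp, Il20rb, Aebp1, Esrrg, Asb2, Col1a2 and Col1a1, and the calls outside the 11 among the 69 were lost in that setting.

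The called genes fall into classes by their changes within each strain. Both strains were called with opposite signs for 72 genes, 0.747% of those tested: 45 rose in BALB/c and fell in C57BL/6, and 27 did the reverse. Among genes that rose in both, 93 rose more in BALB/c and 97 more in C57BL/6, and among genes that fell in both, 67 fell more in BALB/c and 90 more in C57BL/6. In 152 genes the rise, and in 78 the fall, was called in BALB/c alone. In 121 genes the rise, and in 166 the fall, was called in C57BL/6 alone. The absolute contrast was at least 1 in 369 of the called genes and at least 2 in 61, with a median of 0.896. After subtracting the median gene, the strains were farther apart in the left legs in 421 of the called genes and in the right legs in 515; the share with the wider gap in the left legs was 45.0%, beside 50.5% of all tested genes.

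**Figure D1:**
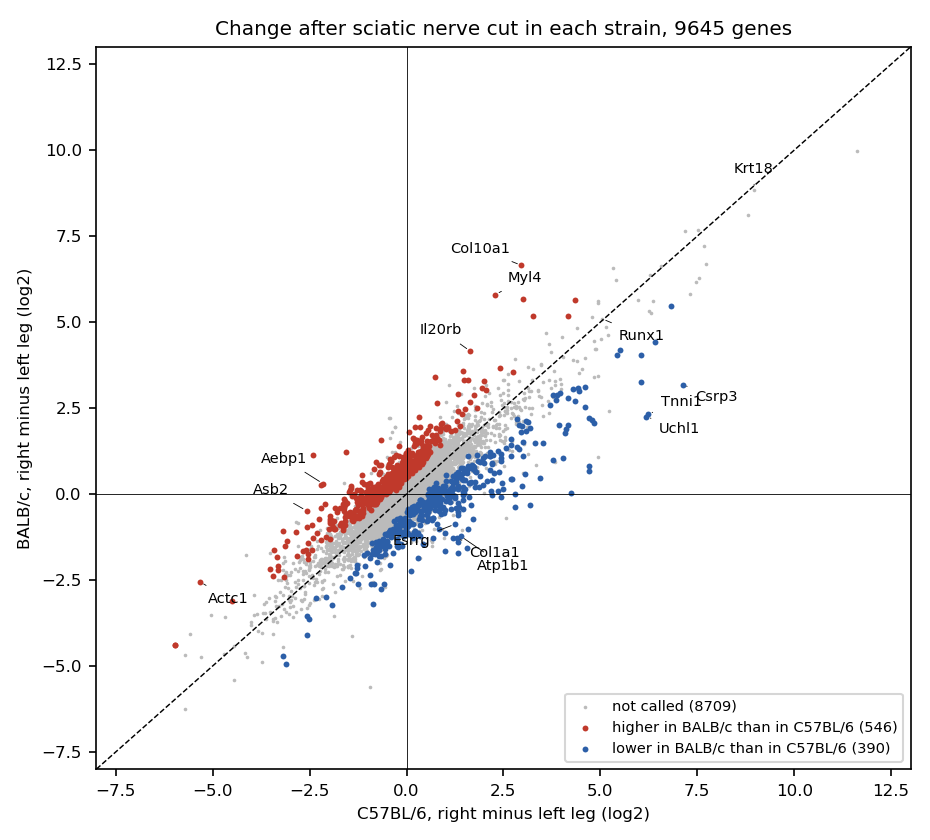
Right minus left change on the log2(RPKM + 0.5) scale in C57BL/6 (x axis) and BALB/c (y axis) for 9645 genes, one point per gene; the dashed line marks equal change. Red points (546) are genes called higher in BALB/c than in C57BL/6, blue points (390) genes called lower, and grey points were not called; Runx1 and Krt18 lie near the line, Myl4 and Il20rb above it and Csrp3, Uchl1 and Tnni1 below it.

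Of the 5 muscle nicotinic receptor subunits, 4 rose in C57BL/6, and in BALB/c 4 rose and 1 fell. None had a called contrast in limma (1 passed an unadjusted p of 0.05, and 0 were called by limma-voom on recovered reads), although Chrng was called lower without BALB/c right 2 and 2 subunits were called lower with arrayWeights, which weights libraries by their fit. Chrng, the embryonic gamma subunit, was at 0.142, 0.0357 and 0.0715 RPKM in the left and 118, 120.4 and 119 in the right legs of C57BL/6. Chrng in BALB/c was at 0, 0.159 and 0.0332 in the left and 56.8, 121 and 79.5 in the right legs. All 6 right legs lay far above all 6 left legs. The contrast of Chrng was -0.49 (95% interval -1.14 to 0.17, adjusted p = 0.305). That of Chrna1, the alpha subunit, was -0.74 (95% interval -1.76 to 0.29, adjusted p = 0.323), and that of Chrnd, the delta subunit, was -1.25 (95% interval -2.25 to -0.24, adjusted p = 0.108). The interval of Chrnd, which is not adjusted for the number of genes, lies below 0, and its call is missed only after adjustment. The median contrast of the 5 subunits was -0.74, beside 0.060 over all genes.

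Musk, the kinase that organizes the synapse, had a contrast of -0.69 (95% interval -1.16 to -0.21, adjusted p = 0.0669), with changes of 1.91 in C57BL/6 and 1.22 in BALB/c. It was called lower with the values as deposited, with TPM, with arrayWeights and without C57BL/6 right 1 or BALB/c left 1. Of 12 tested junction organizers, 1 was called higher and 1 lower (16.7%, against 9.7% of all genes); 4 were called lower without BALB/c left 1, and 2 without C57BL/6 right 1 or BALB/c right 1. Rapsn, which clusters the receptor, was at 19.7, 20.9 and 25.4 RPKM in the left and 30.4, 24.7 and 26.3 in the right legs of C57BL/6. Rapsn in BALB/c was at 21, 20.1 and 22.1 in the left and 36.2, 49.2 and 51.8 in the right legs. Its right legs in BALB/c lay above all other libraries, and its contrast was 0.79 (SE 0.21, adjusted p = 0.0365); the call was lost without any 1 of 7 libraries (all but C57BL/6 left 1, C57BL/6 right 1, BALB/c left 1 and BALB/c right 1 and 2) and also with the values as deposited, TPM and quantile normalization. Erbb3, a neuregulin receptor that Schwann cells also express, rose in both strains and had a contrast of -0.92 (SE 0.21, adjusted p = 0.0194), which was lost without any 1 of C57BL/6 left 3 and C57BL/6 right 2 and 3. Ache, acetylcholinesterase, was not tested because the tables of the strains list different transcripts.

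Of the 17 tested myogenic and activity-dependent regulators, 10 rose and 5 fell in each strain and none was called for the contrast in limma; 2 passed an unadjusted p of 0.05 and limma-voom called 0. With arrayWeights 6 were called higher, while Myog, described below, was called lower. Without BALB/c right 1 or right 2, 1 was called higher. Runx1, a transcription factor induced on denervation, was at 0.337, 0.329 and 0.231 RPKM in the left and 27.6, 22.3 and 27.7 in the right legs of C57BL/6. Runx1 in BALB/c was at 0.333, 0.282 and 0.320 in the left and 23.4, 30.3 and 28.7 in the right legs. Its changes of 5.04 (SE 0.12) and 5.10 (SE 0.12) gave a contrast of 0.058 (95% interval -0.32 to 0.44, adjusted p = 0.853). Myog, myogenin, had a contrast of -0.67 (95% interval -1.85 to 0.52, adjusted p = 0.441). Gadd45a, a stress-induced nuclear protein, had one of 0.83 (95% interval 0.16 to 1.50, adjusted p = 0.109).

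Of 17 tested developmental and denervation-induced genes, 15 rose in each strain, while 2 were called higher and 6 lower for the contrast (47.1%), with a median contrast of -1.04. Since the list was made of such genes with earlier results of these data known, these counts are a description only. The number called lower ranged from 3 to 9 over the fits that left out 1 library; it was 4 without C57BL/6 right 2, 3 without C57BL/6 right 3, 9 without BALB/c left 1 and 0 without BALB/c left 2 and left 3.

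Myl4, the embryonic and atrial myosin light chain (chr11:104411977-104448529), was at 22.7, 24.6 and 20.4 RPKM in the left and 126, 105 and 107 in the right legs of C57BL/6. Myl4 in BALB/c was at 6.18, 7.03 and 9.05 in the left and 219, 760.5 and 495 in the right legs. The left legs of BALB/c were below those of C57BL/6 and the right legs above, without overlap. Myl4 rose by 2.29 (SE 0.33) in C57BL/6 and 5.80 (SE 0.33) in BALB/c, a contrast of 3.51 (SE 0.47, adjusted p = 0.0024), and kept its call in every fit that left out 1 library.

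Actc1, cardiac alpha-actin (chr2:113873020-113878611), the other gene called higher, fell in both strains. Its values were 755, 892 and 1085 RPKM in the left and 15.6, 16.9 and 39.9 in the right legs of C57BL/6. Actc1 in BALB/c was at 195, 127 and 261 in the left and 35.4, 30.4 and 28.4 in the right legs. The left legs of C57BL/6 were the highest, and the right legs of the strains overlapped. The contrast was 2.77 (SE 0.47, adjusted p = 0.00744), a fall of 5.33 in C57BL/6 and of 2.56 in BALB/c on the log2 scale.

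Uchl1, a neuronal and muscle deubiquitinase (chr5:67067360-67078473), went the other way, at 2.19, 2.82 and 1.91 RPKM in the left and 229, 174 and 209 in the right legs of C57BL/6. Uchl1 in BALB/c was at 0.566, 1.86 and 3.43 in the left and 4.65, 12.2 and 15.8 in the right legs. The left legs overlapped between strains, while all 3 right legs of C57BL/6 were above those of BALB/c. It rose in both strains with a contrast of -3.94 (SE 0.63, adjusted p = 0.00634). Its reads may include the antisense gene Uchl1os, since strand was not used. Csrp3, a muscle LIM protein that senses stretch (chr7:56085768-56103421), was at 4.62, 16.2 and 6.11 RPKM in the left and 825, 1589 and 1165 in the right legs of C57BL/6. Csrp3 in BALB/c was at 31.3, 90.5 and 88.5 in the left and 341, 1321 and 423 in the right legs. Here the right legs overlapped and the left legs did not, those of BALB/c being higher. The contrast of Csrp3 was -3.95 (SE 0.81, adjusted p = 0.0155), and both genes kept their calls in every fit that left out 1 library; Csrp3 was not called with no filter on low genes. Sln, Krt18 and Krt8, which encode sarcolipin and a pair of keratins and are nearly silent in innervated muscle, were not called: their contrasts were -1.64 (95% interval -3.62 to 0.34, adjusted p = 0.255), -0.12 (95% interval -1.01 to 0.77, adjusted p = 0.878) and -1.04 (95% interval -1.95 to -0.12, adjusted p = 0.134).

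Slow fibre genes rose in the right legs of C57BL/6, and most had no called change in BALB/c. Of 11 tested members of the list, 11 rose in C57BL/6 and 3 in BALB/c; for the contrast 7 were called lower and 0 higher (63.6% called; 10 were lower and 0 higher at an unadjusted p of 0.05, and limma-voom called 7 lower and 0 higher). The median contrast was -3.16. Myh7, the slow myosin heavy chain (chr14:55589521-55613386), was at 3.01, 0.204 and 0.643 RPKM in the left and 53, 62.2 and 14.8 in the right legs of C57BL/6. Myh7 in BALB/c was at 22.6, 211 and 191 in the left and 189, 174 and 112 in the right legs. Left 1 of BALB/c lay within the range of the right legs of C57BL/6, and left 2 and left 3 lay above every right leg of either strain. The contrast of Myh7 was -4.05 (SE 1.17, adjusted p = 0.0488), and it was lost without any 1 of 10 libraries (all but C57BL/6 left 1 and BALB/c left 1) and also with the values as deposited and quantile normalization.

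Tnni1, slow troponin I (chr1:137696088-137707566), was at 1.77, 0.199 and 0.727 RPKM in the left and 109.7, 119 and 62.5 in the right legs of C57BL/6. Tnni1 in BALB/c was at 22.3, 182 and 172 in the left and 414, 547 and 400.3 in the right legs. In both strains all right legs were above all left legs, with left values of C57BL/6 of 0.199 to 1.77 RPKM. Its contrast was -3.91 (SE 0.95, adjusted p = 0.0273), lost without any 1 of 7 libraries (all but C57BL/6 left 1, C57BL/6 right 1, BALB/c left 1 and BALB/c right 1 and 2) and also with limma-voom. Myl2, the slow regulatory light chain, was at 25.4, 30.5 and 14.5 RPKM in the left and 182, 259 and 189.5 in the right legs of C57BL/6. Myl2 in BALB/c was at 152, 856 and 895 in the left and 318, 768 and 245 in the right legs. Its BALB/c legs overlapped, and its contrast of -3.50 (SE 0.86, adjusted p = 0.0285) was lost without any 1 of 7 libraries (all but C57BL/6 left 2, C57BL/6 right 1, BALB/c left 1 and BALB/c right 1 and 2). Atp2a2, the slow fibre calcium pump, was at 10.4, 6.87 and 7.73 RPKM in the left and 57.2, 65.6 and 58.2 in the right legs of C57BL/6. Atp2a2 in BALB/c was at 19.4, 102 and 105 in the left and 57.8, 35.6 and 46.1 in the right legs. Its contrast was -3.18 (SE 0.69, adjusted p = 0.0182), lost without C57BL/6 right 2. Myoz2, a sarcomere protein, and Mb, myoglobin, shown in the plot of slow fibre genes and named after their values were seen, rose in C57BL/6 from lower left levels, with contrasts of -2.98 (SE 0.56, adjusted p = 0.0105) and -2.33 (SE 0.45, adjusted p = 0.0122); both were lost with no filter on low genes.

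The number of slow fibre genes called lower was 10 without BALB/c left 1, 3 without left 2 and 3 without left 3 of the same group, 3 without C57BL/6 left 3, BALB/c right 3 or C57BL/6 right 3, and 2 without C57BL/6 right 2. With both BALB/c left 2 and left 3 removed it was 0. With no filter on low genes 0 were called.

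**Figure D2:**
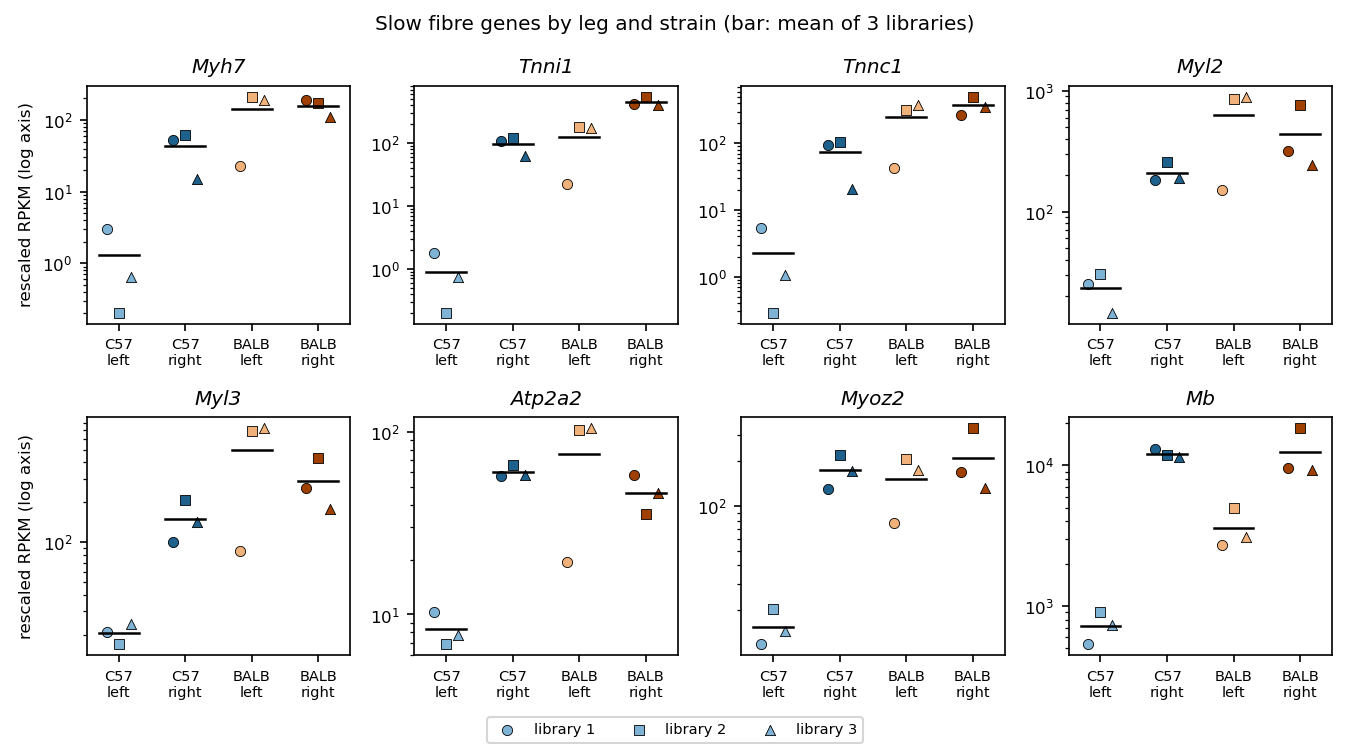
Rescaled RPKM (log axis) of 8 slow fibre genes in the left and right legs of C57BL/6 and BALB/c; marker shape gives the library number, colour the group, and the bar the mean of 3 libraries. In the left legs of BALB/c, library 1 lies below libraries 2 and 3 in each panel, as for Myh7 at 22.6 against 211 and 191.

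Most fast fibre genes fell in both strains, 14 of 16 tested members in C57BL/6 and 12 in BALB/c, and the contrast called 2 higher and 2 lower (25%). Mylk2, the skeletal myosin light chain kinase (chr2:152737088-152748801), was at 531, 487 and 499.8 RPKM in the left and 45.5, 49.2 and 53.2 in the right legs of C57BL/6. Mylk2 in BALB/c was at 559, 323 and 400.5 in the left and 117, 125 and 107 in the right legs. All right legs were below all left legs, with the right legs of BALB/c above those of C57BL/6, and the contrast was 1.51 (SE 0.24, adjusted p = 0.00634). Actn3, alpha-actinin of fast fibres, fell in C57BL/6 by 1.17 (SE 0.23) and had a change of 0.087 (SE 0.23) in BALB/c, a contrast of 1.25 (SE 0.32, adjusted p = 0.0326), lost without any 1 of C57BL/6 left 1, 2 and 3, C57BL/6 right 2 and 3 and BALB/c right 3 and also with TPM and quantile normalization. Myh2 and Myh1, myosins of the less fast of the fast fibres, were the 2 called lower, at -2.46 (SE 0.59, adjusted p = 0.0256) and -2.09 (SE 0.46, adjusted p = 0.0186). Myh2 was lost without any 1 of C57BL/6 left 1 and 3, C57BL/6 right 2 and 3, BALB/c left 2 and BALB/c right 3, and Myh1 was lost without any 1 of C57BL/6 left 3 and C57BL/6 right 3; both rose in C57BL/6 and were not called in BALB/c. Mybpc2, fast myosin-binding protein C, fell in both strains with a contrast of 1.05 (95% interval -0.22 to 2.32, adjusted p = 0.256).

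Of 23 tested members of the list for ion channels and excitation-contraction coupling, 4 were called higher and 2 lower (26.1%; with the TPM scaling 1 higher and 3 lower). Atp1b1, a beta subunit of the sodium pump (chr1:166367230-166388486), was at 13.5, 20.3 and 13.4 RPKM in the left and 36.4, 50.2 and 38.8 in the right legs of C57BL/6. Atp1b1 in BALB/c was at 33.6, 69.5 and 44 in the left and 21.6, 24.5 and 14.4 in the right legs. It rose in C57BL/6 and fell in BALB/c, with a contrast of -2.62 (SE 0.38, adjusted p = 0.00383). Reads of Atp1b1 may include those of the overlapping gene Nme7, as those of Myl4, Esrrg and 2210011C24Rik may include Gm11665, 9330162B11Rik and Mir1199. Likewise, reads of Myh7 may include Mhrt and Mir208b, those of Myh1 may include Myhas, and those of Erbb3 may include Mir6917. Fxyd2, a small regulator of the pump, was at 0.611, 1.48 and 0.738 RPKM in the left and 49.6, 18.6 and 51.5 in the right legs of C57BL/6. Fxyd2 in BALB/c was at 2.86, 4.83 and 3.59 in the left and 3.52, 10.5 and 8.71 in the right legs. It rose in C57BL/6 by 4.72 (SE 0.43), was not called in BALB/c, and had a contrast of -3.89 (SE 0.60, adjusted p = 0.00562). Kcnc4, a potassium channel subunit, was called higher, at 1.41 (SE 0.34, adjusted p = 0.0277), and the call was lost without any 1 of C57BL/6 left 1 and 2, C57BL/6 right 2 and 3 and BALB/c left 2 and also with the values as deposited, TPM and quantile normalization.

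Extracellular matrix genes formed the list with the most called members by number, while the slow fibre list had a larger share called (63.6%). Of 28 tested members, 17 were called lower and 0 higher (60.7%; at an unadjusted p of 0.05, 24 lower and 0 higher; limma-voom, 15 lower and 0 higher), with a median contrast of -1.26 and all 28 contrasts below 0. In C57BL/6, 18 members rose and 1 fell, and in BALB/c 5 rose and 10 fell. The list does not hold every matrix gene: Aebp1 and Col10a1, described below, are outside it and were called higher, at 2.46 and 3.69. The count of members called lower was 10 without C57BL/6 left 1 or BALB/c right 1, 8 without C57BL/6 left 2 or BALB/c left 3, 7 without BALB/c left 2 or BALB/c right 3, 6 without C57BL/6 left 3 or right 2, and 5 without C57BL/6 right 3. It was 3 with no filter on low genes and 2 without BALB/c left 2 and left 3.

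Col1a1 and Col1a2 encode the 2 chains of collagen I. Col1a1 (chr11:94797538-94814356) was at 12, 14.9 and 10.9 RPKM in the left and 21.5, 42.1 and 33.7 in the right legs of C57BL/6. Col1a1 in BALB/c was at 158, 175 and 215 in the left and 82.7, 74.2 and 66.5 in the right legs. Right legs were above left legs in C57BL/6 and below them in BALB/c, and all BALB/c libraries were above all C57BL/6 ones. The changes were 1.29 (SE 0.22) and -1.28 (SE 0.22), with a contrast of -2.57 (SE 0.30, adjusted p = 0.0017). Col1a2 (chr6:4455618-4491543) was at 11.3, 15.8 and 11.2 RPKM in the left and 21, 45.7 and 34.9 in the right legs of C57BL/6. Col1a2 in BALB/c was at 195, 236 and 223 in the left and 82.2, 91.2 and 72.9 in the right legs. It showed the same order of the 4 groups, with a contrast of -2.73 (SE 0.33, adjusted p = 0.0017). Both kept their calls in every fit that left out 1 library.

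Col3a1, the collagen found with collagen I and named after its values were seen, was at 14.9, 14.9 and 12.9 RPKM in the left and 24.3, 61.8 and 44.8 in the right legs of C57BL/6. Col3a1 in BALB/c was at 57.4, 77 and 71.5 in the left and 73.7, 80.9 and 57 in the right legs. It rose in C57BL/6 by 1.49 (SE 0.27), had a change of 0.035 (SE 0.27) in BALB/c, and had a contrast of -1.46 (SE 0.38, adjusted p = 0.0346), lost without any 1 of C57BL/6 left 1, 2 and 3, C57BL/6 right 2 and 3, BALB/c left 2 and 3 and BALB/c right 3. Spp1, osteopontin, had the largest fitted contrast of the list, -4.23 (SE 1.13, adjusted p = 0.0386), at 7.92, 0 and 0.144 RPKM in the left and 22.6, 26.4 and 29.7 in the right legs of C57BL/6. Spp1 in BALB/c was at 1.12, 1.50 and 2.35 in the left and 0.820, 2.48 and 1.95 in the right legs. One left leg of C57BL/6 was listed at 0 and another at 7.92 RPKM, and the call was lost without any 1 of 9 libraries (all but C57BL/6 left 1, BALB/c left 1 and BALB/c right 2).

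Some markers of fibroblasts and tendon were also called lower, and their part in the result was not tested. Of 13 tested fibroblast and fibro-adipogenic progenitor markers, which share Col1a1, Col3a1, Dcn and Lum with the matrix list, 5 were called lower and 0 higher (38.5%; unadjusted, 9 lower and 0 higher; limma-voom, 5 and 0), and 10 of 13 contrasts were below 0. The called ones were Col1a1, Col3a1 and Lum, which are matrix genes, and Cd34 and Fbn1. The count ran from 2 to 7 over the fits that left out 1 library. It was 3 without C57BL/6 left 1, left 2 or right 2 or BALB/c left 3, and 2 without C57BL/6 left 3 or right 3 or BALB/c left 2 or right 3. Their summed RPKM was 224 to 381 in the left and 334 to 550.1 in the right legs of C57BL/6, and 1086 to 1351 in the left and 948 to 1110.4 in the right legs of BALB/c. Of 7 tested tendon and cartilage markers, 3 were called lower and 0 higher (42.9%; unadjusted, 6 and 0; limma-voom, 3 and 0), 5 without C57BL/6 right 1 and 0 without BALB/c left 2 and left 3. Their sums were 22.4 to 31.5 in the left and 87.6 to 208 in the right legs of C57BL/6, and 273 to 374 in the left and 224 to 267 in the right legs of BALB/c. Tnmd, a tendon membrane protein (chrX:130385547-130400116), was at 0.256, 1.19 and 0.722 RPKM in the left and 1.74, 5.35 and 2.65 in the right legs of C57BL/6. Tnmd in BALB/c was at 18.6, 36.5 and 28.3 in the left and 12.7, 17.7 and 9.73 in the right legs. It rose in C57BL/6 and fell in BALB/c, with a contrast of -2.59 (SE 0.54, adjusted p = 0.0156) that was lost with no filter on low genes. Thbs4, a thrombospondin of tendon and muscle, had a contrast of -2.23 (SE 0.61, adjusted p = 0.0424), lost without any 1 of 9 libraries (all but C57BL/6 right 1, BALB/c left 1 and BALB/c right 2). In RNA from whole muscle, fewer cells of a type and less RNA per cell cannot be told apart.

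**Figure D3:**
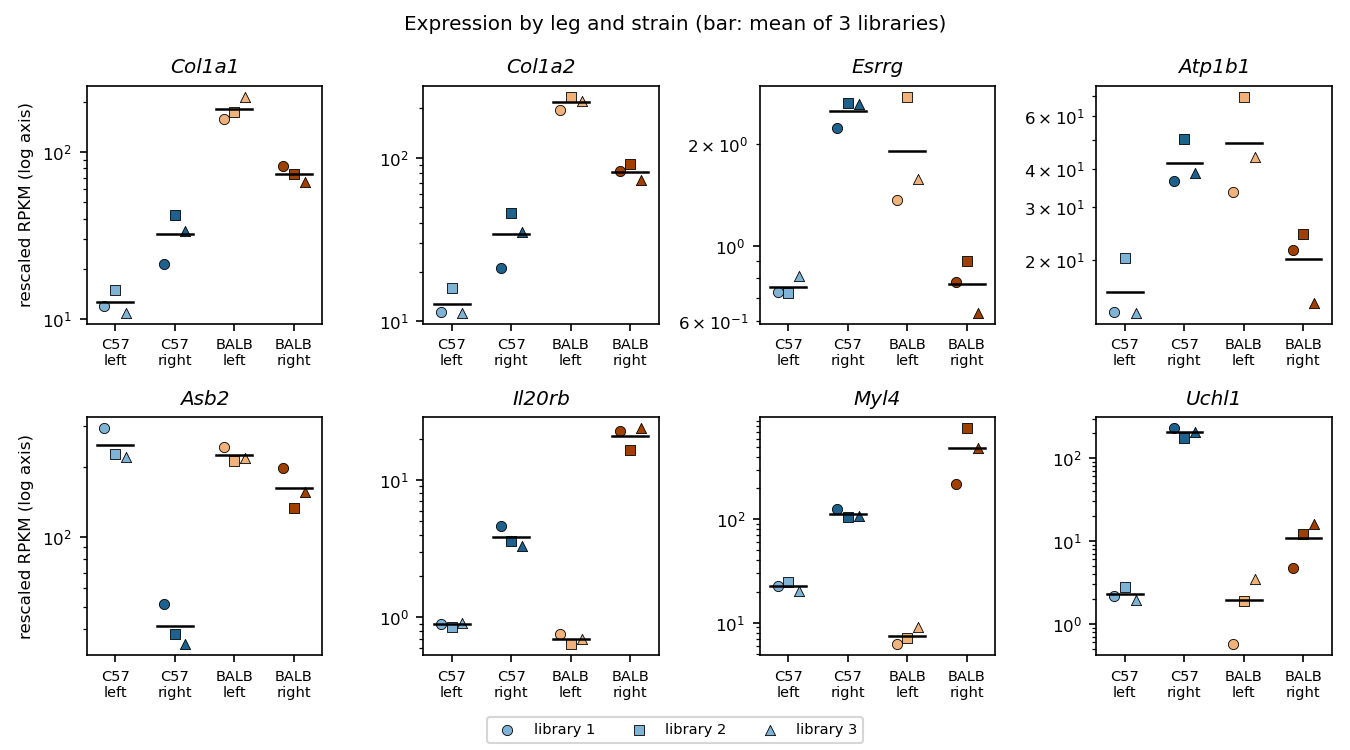
Rescaled RPKM (log axis) of 8 genes in the left and right legs of C57BL/6 and BALB/c; marker shape gives the library number, colour the group, and the bar the mean of 3 libraries. Col1a1, Col1a2, Esrrg and Atp1b1 were higher in the right than the left legs of C57BL/6 and lower in those of BALB/c, Asb2 fell more in C57BL/6, Il20rb and Myl4 rose more in BALB/c and Uchl1 rose more in C57BL/6.

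Genes of mitochondrial fuel use were called fallen in larger numbers in BALB/c. Of 36 tested genes of the citrate cycle and fatty acid oxidation, 18 fell and 2 rose in C57BL/6, and 30 fell and 0 rose in BALB/c. For the contrast 11 were called lower and 0 higher (30.6%; unadjusted, 24 lower and 0 higher; limma-voom, 11 and 0), with a median of -0.70. The count was 18 with the values as deposited, 26 with TPM and 23 after quantile normalization. It was 25 without BALB/c right 2, 5 without C57BL/6 left 2, 4 without C57BL/6 left 3, 3 without BALB/c left 2, and 2 without BALB/c right 3 or without C57BL/6 left 1, right 2 or right 3. It was 0 without BALB/c left 2 and left 3.

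Idh2, mitochondrial isocitrate dehydrogenase, was at 41.6, 64 and 66.6 RPKM in the left and 28.5, 47.2 and 38.8 in the right legs of C57BL/6. Idh2 in BALB/c was at 129, 265 and 161 in the left and 29.3, 45 and 17.7 in the right legs. The left legs of BALB/c were the highest and the right legs of the strains overlapped. Its contrast was -2.03 (SE 0.48, adjusted p = 0.0256), lost without any 1 of C57BL/6 left 1, C57BL/6 right 2 and 3, BALB/c left 2 and BALB/c right 3. Mdh1, the cytosolic malate dehydrogenase, had a contrast of -1.26 (SE 0.30, adjusted p = 0.0253), lost without any 1 of C57BL/6 left 1 and 2, C57BL/6 right 2 and 3, BALB/c left 2 and BALB/c right 3.

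Of 52 tested respiratory chain and ATP synthase genes, 3 were called lower and 0 higher (5.77%, below the 9.7% of all genes; unadjusted, 12 lower and 0 higher; limma-voom, 3 and 0), with a median contrast of -0.29. The count was 11 with the values as deposited, 21 with TPM, 14 after quantile normalization, 22 without BALB/c right 2, 0 without C57BL/6 right 3, and 1 without any 1 of C57BL/6 left 1, 2 and 3, C57BL/6 right 2, BALB/c left 1 and 2 and BALB/c right 1 and 3. Sdha and Ndufs1, of complexes II and I, fell in both strains and more in BALB/c, at -0.93 (SE 0.20, adjusted p = 0.0167) and -0.91 (SE 0.24, adjusted p = 0.0374). The call of Sdha was lost without C57BL/6 right 3, and that of Ndufs1 without any 1 of 9 libraries (all but C57BL/6 right 1, BALB/c left 3 and BALB/c right 2).

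Among 8 tested mitochondrial regulators 2 were called lower and 0 higher (25%, beside 9.7% of all genes). At an unadjusted p of 0.05, 3 were lower and 2 higher, and limma-voom called 2 lower and 0 higher. Esrrg, an orphan nuclear receptor that drives oxidative genes (chr1:189476120-190038764), was at 0.728, 0.724 and 0.812 RPKM in the left and 2.23, 2.64 and 2.62 in the right legs of C57BL/6. Esrrg in BALB/c was at 1.37, 2.75 and 1.58 in the left and 0.782, 0.904 and 0.634 in the right legs. Right legs were above left legs in C57BL/6 and below them in BALB/c, with changes of 1.25 (SE 0.18) and -0.88 (SE 0.18). Its contrast was -2.13 (SE 0.26, adjusted p = 0.0017), between -2.29 and -1.89 when each library was left out in turn. Perm1, a muscle regulator of mitochondrial genes, fell in both strains, with a contrast of -1.83 (SE 0.46, adjusted p = 0.0314) that was lost without any 1 of 8 libraries (all but C57BL/6 right 1, BALB/c left 1 and 3 and BALB/c right 2). Ppargc1a, the coactivator PGC-1 alpha, fell in both, with a contrast of -0.46 (95% interval -0.90 to -0.017, adjusted p = 0.164).

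Of 25 tested glycolysis and glycogen genes, 21 fell in each strain and 3 were called lower for the contrast, 0 higher (12%; unadjusted, 3 lower and 1 higher; limma-voom, 3 and 0). The count was 6 without BALB/c right 2, and 1 without any 1 of C57BL/6 left 1, 2 and 3, C57BL/6 right 2 and 3, BALB/c left 2 and BALB/c right 3. Gbe1, the glycogen branching enzyme (chr16:70314194-70569965), rose in both strains, at 6.21, 7.57 and 5.21 RPKM in the left and 20.2, 23.4 and 23.8 in the right legs of C57BL/6. Gbe1 in BALB/c was at 9.25, 9.97 and 10.8 in the left and 11.7, 13.6 and 13 in the right legs. The right legs of C57BL/6 were above all other libraries, and the contrast was -1.42 (SE 0.18, adjusted p = 0.00193). Pgm1, listed here at chr5:64484178-64519590, belongs to the phosphoglucomutase family, and Pgm2 is a separate member of the list. Pgm1 was low, between 0.69 and 2.17 RPKM across the 12 libraries, near the filter of 1 RPKM and the pseudocount of 0.5. Its contrast was -0.75 (SE 0.20, adjusted p = 0.0417). The call was lost without any 1 of 8 libraries (all but C57BL/6 right 1, BALB/c left 1 and 3 and BALB/c right 2). It was also lost with the values as deposited and with quantile normalization.

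Among genes of protein breakdown, the 3 ubiquitin ligase genes with a called contrast, Asb2, Trim63 and Mdm2, kept it in every fit that left out 1 library. Of 20 tested atrophy ligases, 3 were called higher and 0 lower (15.0%; unadjusted, 4 and 4; limma-voom, 3 and 0); with TPM the counts were 1 higher and 3 lower, and with the values as deposited 3 and 2. Without BALB/c right 2, 5 were higher, and without BALB/c left 2 and left 3, 1 was. Asb2, a ligase subunit that acts on filamins and desmin (chr12:104559352-104594211), was at 293, 228 and 221 RPKM in the left and 51.1, 38 and 34.4 in the right legs of C57BL/6. Asb2 in BALB/c was at 244, 212 and 218 in the left and 197, 133 and 156 in the right legs. Its right legs in C57BL/6 were below all other libraries. It fell in both strains, by 2.58 in C57BL/6 and by 0.49 in BALB/c on the log2 scale, with a contrast of 2.09 (SE 0.26, adjusted p = 0.0017). Trim63, the ligase MuRF1 (chr4:133871035-133885544), was at 89.1, 93.7 and 91.9 RPKM in the left and 77.1, 66.6 and 69.3 in the right legs of C57BL/6. Trim63 in BALB/c was at 105, 78.2 and 83.3 in the left and 131, 148 and 187 in the right legs. The right legs were below the left legs in C57BL/6 and above them in BALB/c. Its changes were -0.37 (SE 0.15) (adjusted p = 0.0508) and 0.80 (SE 0.15) (adjusted p = 0.000615), with a contrast of 1.17 (SE 0.21, adjusted p = 0.00902); with TPM the adjusted p was 0.058. Mdm2, the ligase of p53, named after its values were seen, rose in both strains with a contrast of 0.91 (SE 0.19, adjusted p = 0.0167), lost with TPM. Fbxo32, the ligase atrogin-1, had a contrast of 0.70 (95% interval -0.0062 to 1.40, adjusted p = 0.181).

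Of 34 tested proteasome subunits, 23 rose and 1 fell in C57BL/6, and 29 rose and 0 fell in BALB/c. For the contrast 2 were called higher and 0 lower (5.88%; unadjusted, 11 and 0; limma-voom, 1 and 0), 5 higher without BALB/c left 1 and 4 without C57BL/6 right 1, while TPM gave 0 higher and 1 lower and quantile normalization 1 and 1. Psmd7, a subunit of the proteasome lid, had a contrast of 0.93 (SE 0.21, adjusted p = 0.0208), lost without any 1 of C57BL/6 left 3, C57BL/6 right 2 and 3 and BALB/c right 3 and also with TPM, and Psme4, an activator, one of 0.91 (SE 0.26, adjusted p = 0.049), lost without any 1 of 9 libraries (all but C57BL/6 right 1, BALB/c left 1 and BALB/c right 2) and also with the values as deposited, TPM, quantile normalization and limma-voom. Of 24 tested autophagy and lysosome genes, 2 were called higher and 2 lower (16.7%; with TPM 0 and 2; 5 higher without BALB/c left 1). Map1lc3a, an LC3 protein of autophagosomes, was at 192, 227 and 230.4 RPKM in the left and 966, 915 and 829 in the right legs of C57BL/6. Map1lc3a in BALB/c was at 143, 102 and 149 in the left and 940.1, 1292 and 989 in the right legs. It rose in both strains, with a contrast of 0.97 (SE 0.25, adjusted p = 0.0334), lost without any 1 of C57BL/6 left 2 and 3, C57BL/6 right 2 and 3, BALB/c left 2 and BALB/c right 3 and also with TPM. Of 17 tested FoxO and glucocorticoid targets 2 were called higher and 0 lower (11.8%; unadjusted, 6 and 1; limma-voom, 1 and 0; 0 and 0 with the values as deposited, with TPM and after quantile normalization).

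Stress genes were called in both directions. Of 15 tested ATF4 and stress genes, 2 were called higher and 3 lower (33.3%). Chac1, which breaks down glutathione (chr2:119176978-119180062), was at 76.2, 99 and 43.1 RPKM in the left and 5.38, 9.38 and 7.02 in the right legs of C57BL/6. Chac1 in BALB/c was at 19.4, 19.2 and 21.6 in the left and 9.69, 10.5 and 7.63 in the right legs. It fell in both strains, more in C57BL/6, where the left legs were higher, with a contrast of 2.11 (SE 0.37, adjusted p = 0.00839). Mthfd2, a mitochondrial folate enzyme (chr6:83255698-83267598), was at 2.35, 1.39 and 1.58 RPKM in the left and 12.2, 10.1 and 13.7 in the right legs of C57BL/6. Mthfd2 in BALB/c was at 1.88, 1.61 and 1.89 in the left and 1.54, 3.35 and 2.53 in the right legs. The right legs of C57BL/6 were above all other libraries, and the contrast was -2.14 (SE 0.31, adjusted p = 0.00375). Of 14 tested heat shock genes 1 was called higher and 1 lower (14.3%). Hspb7, a small heat shock protein of muscle (chr4:140976694-140981225), was at 32.9, 48.2 and 28.9 RPKM in the left and 800.0, 1211 and 1156 in the right legs of C57BL/6. Hspb7 in BALB/c was at 129, 269.6 and 299 in the left and 691, 1313 and 846 in the right legs. It rose in both strains, more in C57BL/6, from a lower left level, with a contrast of -2.78 (SE 0.47, adjusted p = 0.00745).

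Of 10 tested polyamine enzymes 3 were called higher and 0 lower (30.0%; unadjusted, 4 and 0; limma-voom, 1 and 0), but 0 in either direction with the values as deposited, with TPM or after quantile normalization. Of these 3 calls 2 are Amd1 and its near copy Amd2, which share their reads, cannot be told apart and so hold 1 signal. Amd1 makes the aminopropyl donor of polyamines. It fell in both strains, with a contrast of 1.57 (SE 0.45, adjusted p = 0.0487), lost without any 1 of 9 libraries (all but C57BL/6 right 3, BALB/c left 1 and BALB/c right 2) and also with the values as deposited, TPM, quantile normalization and limma-voom. Of 24 tested genes of TGF-beta, myostatin, activin and IGF signalling 2 were called higher and 1 lower (12.5%). Gdf5, a growth factor of the BMP family known to be induced by denervation, was at 0, 0 and 0 RPKM in the left and 5.77, 10.6 and 9.68 in the right legs of C57BL/6. Gdf5 in BALB/c was at 0, 0.104 and 0.0273 in the left and 18.1, 21 and 18.2 in the right legs. The left legs of C57BL/6 were listed at 0, so its fitted contrast of 1.02 (SE 0.26, adjusted p = 0.0311) depends on the pseudocount. It was lost without any 1 of C57BL/6 left 1, 2 and 3, C57BL/6 right 3, BALB/c left 3 and BALB/c right 3 and also with TPM and had the opposite sign, -0.38, with limma-voom.

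Several of the largest contrasts belong to genes outside these lists. Il20rb, a subunit of the receptors for interleukin-20 family cytokines (chr9:100358138-100386892), had the smallest adjusted p of all genes. It was at 0.90, 0.855 and 0.907 RPKM in the left and 4.65, 3.61 and 3.32 in the right legs of C57BL/6. Il20rb in BALB/c was at 0.753, 0.637 and 0.698 in the left and 22.8, 16.5 and 23.9 in the right legs. The left legs of BALB/c were slightly below those of C57BL/6, and the right legs of BALB/c were above all other libraries. Its changes of 1.64 (SE 0.15) and 4.16 (SE 0.15) gave a contrast of 2.52 (SE 0.21, adjusted p = 0.000418), between 2.42 and 2.68 when each library was left out.

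Col10a1, a collagen best known from cartilage (chr10:34109787-34116891), was listed at 0 in all 3 left legs of C57BL/6, at 6.58, 2.30 and 2.46 RPKM in the right legs, and at 0.0235, 0.0197 and 0.0202 in the left and 55.5, 34 and 73.7 in the right legs of BALB/c. The right legs did not overlap between strains. The fitted contrast was 3.69 (SE 0.46, adjusted p = 0.0017), but it was not called with limma-voom (adjusted p = 0.423), and its reads may include those of Nt5dc1, which overlaps it. Ankrd55, an ankyrin repeat protein (chr13:113078659-113174210), was at 0.0243, 0 and 0 RPKM in the left and 3.94, 3.02 and 3.84 in the right legs of C57BL/6. Ankrd55 in BALB/c was at 0.129, 0.0877 and 0.0225 in the left and 17.2, 34.4 and 41.7 in the right legs. Its contrast of 2.67 (SE 0.35, adjusted p = 0.00219) was likewise not called with limma-voom (adjusted p = 0.714). The left legs of Col10a1 and Ankrd55 lay far below the pseudocount of 0.5, so the fitted contrasts of both genes depend on it. Both passed the filter through their right legs.

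Perp, a desmosome protein of epithelia (chr10:18564877-18576878), was at 0.391, 0.934 and 0.501 RPKM in the left and 2.03, 0.902 and 1.16 in the right legs of C57BL/6. Perp in BALB/c was at 0.604, 0.479 and 0.876 in the left and 11.9, 8.65 and 15.4 in the right legs. The right legs of BALB/c were above all other libraries, and the contrast was 2.68 (SE 0.37, adjusted p = 0.00281). It is the only member of the skin marker list that passed the filter, and the sum of the 10 other listed skin markers found in the tables was 1.66 to 1.82 in the left and 1.61 to 2.46 in the right legs of C57BL/6, and 1.34 to 2.64 in the left and 1.79 to 1.99 in the right legs of BALB/c. Of the other listed skin markers, 8 were under 1 RPKM in a table, 2 had different transcripts in the tables and 1 was not listed. Aebp1, a secreted matrix protein (chr11:5761869-5772251), was at 74.5, 69.1 and 81.1 RPKM in the left and 12.7, 18.4 and 18.8 in the right legs of C57BL/6. Aebp1 in BALB/c was at 20.3, 24.8 and 22.4 in the left and 25.5, 34.5 and 24.2 in the right legs. It fell in C57BL/6, was not called in BALB/c, and had a contrast of 2.46 (SE 0.24, adjusted p = 0.00105); its reads may include those of Pold2. Smyd2, a lysine methyltransferase (chr1:191704371-191746170), was at 202, 173 and 192 RPKM in the left and 60.7, 27.2 and 40.7 in the right legs of C57BL/6. Smyd2 in BALB/c was at 142, 64.2 and 124 in the left and 130.4, 106 and 146 in the right legs. It too fell in C57BL/6 and was not called in BALB/c, with a contrast of 2.47 (SE 0.43, adjusted p = 0.00839). Car3, carbonic anhydrase 3, abundant in slow muscle and fat (chr3:14863538-14872373), was at 2853, 3880.4 and 2352 RPKM in the left and 10464, 7295 and 7277 in the right legs of C57BL/6. Car3 in BALB/c was at 1671, 1306 and 1182 in the left and 12414, 14602 and 13779.6 in the right legs. It rose in both strains, more in BALB/c, with a contrast of 1.83 (SE 0.35, adjusted p = 0.0111) that was lost with no filter on low genes. It is the 1 called gene of the 9 tested adipocyte markers (11.1%; unadjusted, 1 higher and 2 lower; limma-voom, 1 and 0). The other 8 had contrasts below 0, the median of the list was -0.60, and Adipoq, adiponectin, had a contrast of -0.32 (SE 0.95, adjusted p = 0.853). All 11 slow fibre contrasts were below 0 as well.

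2210011C24Rik, a gene of unknown role (chr8:86534127-86535619), was at 3.51, 3.32 and 4.74 RPKM in the left and 1.27, 0.970 and 0.691 in the right legs of C57BL/6. 2210011C24Rik in BALB/c was at 1.82, 0.536 and 2.41 in the left and 3.52, 3.49 and 5.09 in the right legs. It fell in C57BL/6 and rose in BALB/c, with a contrast of 2.79 (SE 0.45, adjusted p = 0.00634), and it kept its call in every fit that left out 1 library. Htra4, a secreted serine protease, had a fitted contrast among the largest of the higher genes, 3.55 (SE 1.00, adjusted p = 0.0466), lost without any 1 of 9 libraries (all but C57BL/6 right 1, BALB/c left 1 and BALB/c right 2) and also with the values as deposited, TPM and limma-voom. Slc25a34, a mitochondrial carrier, and Frzb, a secreted Wnt antagonist, were among the 10 largest of the lower genes, at -3.13 (SE 0.85, adjusted p = 0.0415) and -3.04 (SE 0.88, adjusted p = 0.0495). Slc25a34 was lost without any 1 of 9 libraries (all but C57BL/6 right 1, BALB/c left 1 and BALB/c right 2) and also with quantile normalization and limma-voom, and Frzb without any 1 of 9 libraries (all but C57BL/6 right 1, BALB/c left 1 and BALB/c right 2) and also with quantile normalization. BALB/c left 2 had the highest value of both, at 20.7 and 17.0 RPKM.

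Of 11 tested macrophage markers, 11 rose in C57BL/6 and 9 in BALB/c, and 2 were called lower and 0 higher for the contrast (18.2%; unadjusted, 8 and 0; limma-voom, 2 and 0). The count was 7 without BALB/c right 2, 5 without C57BL/6 right 1, 1 without C57BL/6 left 1 or BALB/c right 1, and 0 without C57BL/6 left 3, right 2 or right 3 or BALB/c left 2 or right 3. Lyz2, lysozyme, and Csf1r, the receptor for the macrophage growth factor, had contrasts of -1.42 (SE 0.37, adjusted p = 0.0351) and -1.32 (SE 0.31, adjusted p = 0.0248). Lyz2 was lost without any 1 of 7 libraries (all but C57BL/6 left 2, C57BL/6 right 1, BALB/c left 1 and 3 and BALB/c right 2), and Csf1r without any 1 of C57BL/6 left 3, C57BL/6 right 2 and 3, BALB/c left 2 and BALB/c right 3. The summed macrophage markers were 17.3 to 22.8 in the left and 92.5 to 170.4 in the right legs of C57BL/6, and 95.8 to 137 in the left and 179 to 333 in the right legs of BALB/c. For the interferon, circadian, endothelial, pericyte, satellite cell, neutrophil and mast cell and erythroid lists, limma called 0 members in either direction. In this order the lists had 11, 14, 15, 9, 10, 2 and 6 tested members. With so few members, and 9.7% of all genes called, 0 calls do not show that a list responded alike in the strains. At an unadjusted p of 0.05 these lists had 2 higher and 0 lower, 1 and 0, 0 and 1, 0 and 1, 0 and 2, 0 and 0, and 0 and 0 members, and limma-voom called 0 in each. The 6 erythroid contrasts were all above 0, with a median of 2.24 that ran from 0.94 to 4.06 when each library was left out, and 4 of them were called higher without BALB/c right 3. In each of the other 6 lists, leaving out 1 library gave at most 1 call in either direction. Of 8 tested Schwann cell markers 1, Erbb3, was called lower and 0 higher (12.5%; unadjusted, 2 and 0; limma-voom, 1 and 0). No lymphocyte marker passed the filter. Single calls were made in the lists of antigen presentation (Tap1, 0.83 (SE 0.22, adjusted p = 0.041)) and DNA replication (Mcm7, 0.66 (SE 0.14, adjusted p = 0.0155)). They were 1 of 16 tested members (6.25%) and 1 of 10 (10%), beside 9.7% of all genes. Tap1 was lost without any 1 of 7 libraries (all but C57BL/6 left 2, C57BL/6 right 1, BALB/c left 1 and 2 and BALB/c right 2) and also with the values as deposited and TPM, and Mcm7 without C57BL/6 right 3 and also with the values as deposited and TPM.

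**Figure D4:**
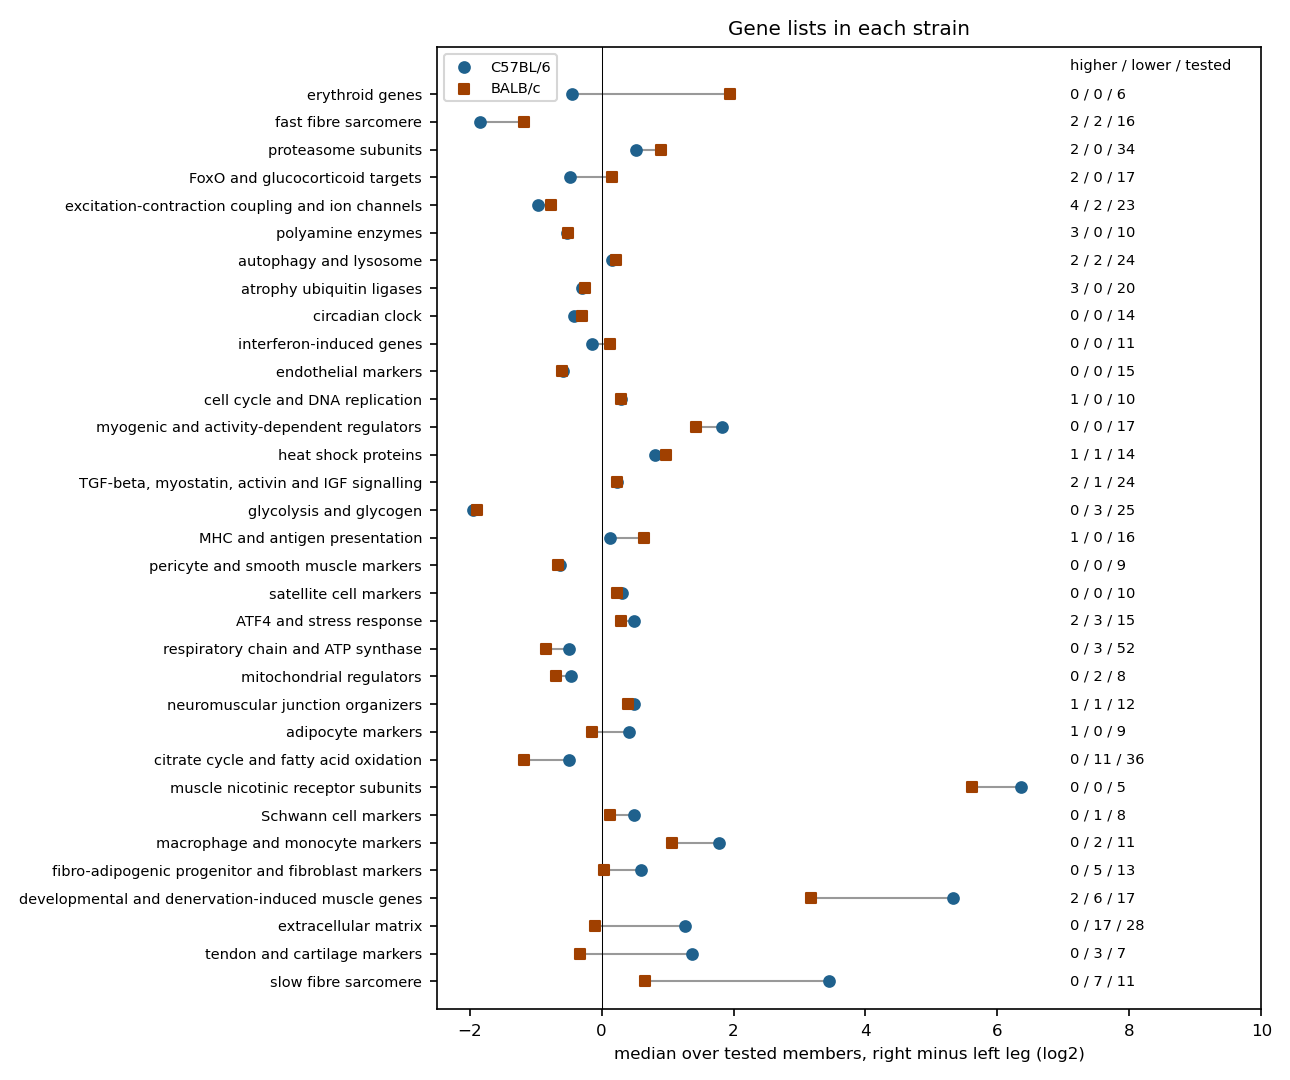
Median right minus left change (log2) over the tested members of each list with at least 5 of them, in C57BL/6 (circles) and BALB/c (squares), ordered by the median contrast; the numbers at the right are members called higher, called lower and tested. The slow fibre, tendon and matrix lists at the bottom have higher medians in C57BL/6 than in BALB/c, and the erythroid list at the top has 0 called members of 6.

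Dhrs7c, a short-chain dehydrogenase of the sarcoplasmic reticulum, fell in both strains, at 205, 259 and 245 RPKM in the left and 2.82, 3.57 and 6.30 in the right legs of C57BL/6. Dhrs7c in BALB/c was at 297, 176 and 256 in the left and 2.52, 3.31 and 2.10 in the right legs. All right legs were far below all left legs, and the contrast was -0.55 (95% interval -1.35 to 0.24, adjusted p = 0.34). Chrna7, the alpha-7 nicotinic receptor that the series names, was too low to be tested with the other genes: its recovered reads were at most 3 in any library. The contrast of mean deposited RPKM was -0.0607. Permuting the legs within each strain over 400 arrangements gave a two-sided permutation p of 0.09, where the smallest possible p is 0.005. That p is exact only if the leg had no effect in either strain, so it is not an exact test of the strain difference. A strain difference in the response of Chrna7 was not detectable at this depth.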

How the data were processed

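RNA-seq of gastrocnemius gave 12 libraries in 4 groups of 3. The deposited values are RPKM per gene, made by the authors with HOMER over exons on both strands with the mm9 annotation and 1 transcript kept per gene, per the file headers; the submitters' processing notes also name HISAT2, DESeq2 and GRCm38/mm10, without versions. Strand was not used, so overlapping and antisense genes cannot be told apart. Replicates were not pooled, and 0 columns lacked a sample.

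The tables were joined by symbol. Of 25094 symbols, 23630 had the same transcript and length in both, and 9645 of these had a mean of at least 1 RPKM in each table; 1464 had another transcript or length. Values were divided by median-of-ratios factors within each table, and log2(RPKM + 0.5) was fitted with limma 3.58.1 in R 4.3.3 (4 group means, 8 residual degrees of freedom, eBayes with trend). P-values were adjusted over all 9645 genes by Benjamini and Hochberg, with calls at 0.05; fold changes of low genes are understated on this scale. Single genes were compared by the exact permutation test only for Chrna7. Whole reads were recovered from the RPKM steps (99.4% or more of values within 0.1 read) for limma-voom and for Chrna7. The fit was run on simulated reads with known strain differences. The simulation had no other change between legs, the same spread setting for every gene and no libraries apart from the rest. It therefore says nothing about the scaling or about single libraries.

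The text names the 10 largest called contrasts in each direction, for each list at most 2 called members per direction, and 19 genes fixed by name, with a few others marked where they appear; results for a few of these genes were left out. The members and the 37 gene lists were chosen with earlier results of these data known. Alternatives were scaling, pseudocount, filter, all shared symbols, eBayes options, arrayWeights, limma-voom, a replicate block, a minimum contrast and leaving out each library; leaving out BALB/c left 2 and 3 together was chosen after seeing the data.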

Additional observations from a re-analysis of the deposited data

Results flagged for a closer look

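The effect of nerve loss differed between the strains by a test of the difference itself, limma's contrast, in 546 genes called higher and 390 called lower, and for each named gene below the value is that contrast of log2 changes (BALB/c minus C57BL/6) over 3 libraries a group. No group had enough libraries for a search for single libraries far from the rest.

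The 10 called genes with the largest positive contrasts were Col10a1 (3.69), Htra4 (3.55), Myl4 (3.51), 2210011C24Rik (2.79), Actc1 (2.77), Perp (2.68), Ankrd55 (2.67), Il20rb (2.52), Smyd2 (2.47) and Aebp1 (2.46). The contrasts of Col10a1 and Ankrd55 depend on the pseudocount. The other named genes called higher were chosen from the gene lists and not by rank among all called genes. They were Chac1 (2.11), Asb2 (2.09), Car3 (1.83), Amd1 (1.57), Amd2 (1.57), Mylk2 (1.51), Kcnc4 (1.41), Gdf11 (1.32), Actn3 (1.25), Trim63 (1.17) and Gdf5 (1.02), and also Map1lc3a (0.97), Cebpd (0.97), Psmd7 (0.93), Psme4 (0.91), Hspe1 (0.84), Tap1 (0.83), Eif4ebp1 (0.80), Rapsn (0.79), Tfeb (0.69), Mcm7 (0.66) and Slc3a2 (0.50).

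The 10 called genes with the largest negative contrasts were Spp1 (-4.23), Myh7 (-4.05), Csrp3 (-3.95), Uchl1 (-3.94), Tnni1 (-3.91), Fxyd2 (-3.89), Myl2 (-3.50), Atp2a2 (-3.18), Slc25a34 (-3.13) and Frzb (-3.04). Those chosen from the lists were Hspb7 (-2.78), Col1a2 (-2.73), Atp1b1 (-2.62), Tnmd (-2.59), Col1a1 (-2.57), Myh2 (-2.46), Thbs4 (-2.23), Mthfd2 (-2.14), Esrrg (-2.13), Myh1 (-2.09), Idh2 (-2.03), Perm1 (-1.83) and Lum (-1.69), and also Gbe1 (-1.42), Lyz2 (-1.42), Csf1r (-1.32), Fstl1 (-1.26), Mdh1 (-1.26), Asns (-1.08), Sdha (-0.93), Erbb3 (-0.92), Ndufs1 (-0.91), Wipi1 (-0.76), Pgm1 (-0.75) and Lamp2 (-0.60). The genes named only here were taken by the rule from lists described above; their calls were lost as follows. Tfeb was lost without any 1 of 10 libraries (all but BALB/c left 1 and BALB/c right 3) and also with the values as deposited, TPM and quantile normalization. Wipi1 was lost without C57BL/6 right 3. Lamp2 was lost without any 1 of 8 libraries (all but C57BL/6 right 1, BALB/c left 3 and BALB/c right 1 and 2). Cebpd was lost without any 1 of 11 libraries (all but BALB/c right 1) and also with the values as deposited, TPM, quantile normalization and limma-voom. Eif4ebp1 was lost without any 1 of 9 libraries (all but C57BL/6 right 1 and BALB/c right 1 and 2) and also with the values as deposited, TPM and quantile normalization. Slc3a2 was lost without any 1 of 9 libraries (all but C57BL/6 right 1 and BALB/c right 1 and 2) and also with the values as deposited, TPM and quantile normalization. Asns was lost without any 1 of 10 libraries (all but C57BL/6 right 1 and BALB/c right 2) and also with quantile normalization. Hspe1 was lost without any 1 of 7 libraries (all but C57BL/6 left 1, C57BL/6 right 1, BALB/c left 1 and BALB/c right 1 and 2) and also with the values as deposited, TPM and quantile normalization. Gdf11 was lost without any 1 of 8 libraries (all but C57BL/6 right 1, BALB/c left 1 and 3 and BALB/c right 2) and also with the values as deposited and TPM. Fstl1 was lost without any 1 of 7 libraries (all but C57BL/6 left 1, C57BL/6 right 1, BALB/c left 1 and BALB/c right 1 and 2). Lum was lost without any 1 of 9 libraries (all but C57BL/6 right 1, BALB/c left 1 and BALB/c right 2) and also with quantile normalization and limma-voom.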

How the results depend on the processing

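With the values as deposited 241 genes were higher and 510 lower, with TPM 77 and 698, after quantile normalization 379 and 455, with no filter 294 and 250, with a filter of 5 RPKM 501 and 232, with arrayWeights 2361 and 1432, and with a minimum absolute contrast of 1, 161 and 208. Leaving out 1 library gave 153 to 737 higher and 140 to 594 lower, and without both BALB/c left 2 and left 3 the counts were 22 and 14. Genes with opposite signs numbered 37 to 105 when 1 library was left out, 312 with arrayWeights, 40 with the minimum and 9 without those 2 libraries. Within C57BL/6, risen and fallen genes were 6483 and 826 as deposited, 6076 and 752 with TPM, 1630 and 1750 with the filter of 5 RPKM, and 895 and 887 with the minimum. Within BALB/c they were 5647 and 1080 as deposited, 994 and 894 with the minimum, and fallen genes were 1313 with TPM and 1464 with the filter. Where fewer genes were tested or a minimum was set, that is part of the change; for the others the cause was not tested.

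The sign changed for Gdf5 (-0.38), Chrng (0.15), Krt18 (0.45) and Krt8 (0.24) with limma-voom, for Runx1 as deposited (-0.065), with TPM (-0.20) and with 1 median-of-ratios over all 12 columns (-0.034), for Krt18 with a pseudocount of 0.1 (0.27) and for Mybpc2 with arrayWeights (-0.0061). Leaving out 1 library gave -0.043 to 0.17 for Runx1 and -0.47 to 0.26 for Krt18. Of the 69 named calls, these were lost as deposited: Htra4, Myh7, Rapsn, Kcnc4, Pgm1, Psme4, Tfeb, Cebpd, Eif4ebp1, Slc3a2, Hspe1, Amd1, Amd2, Gdf11, Mcm7 and Tap1. With TPM these were lost: Htra4, Rapsn, Actn3, Kcnc4, Psmd7, Psme4, Trim63, Map1lc3a, Tfeb, Cebpd, Eif4ebp1, Slc3a2, Hspe1, Amd1, Amd2, Gdf11, Gdf5, Mcm7 and Tap1. After quantile normalization these were lost: Myh7, Slc25a34, Frzb, Rapsn, Actn3, Kcnc4, Pgm1, Psme4, Tfeb, Cebpd, Eif4ebp1, Slc3a2, Asns, Hspe1, Amd1, Amd2 and Lum. With limma-voom these were lost, beside Gdf5: Col10a1, Htra4, Ankrd55, Tnni1, Slc25a34, Psme4, Cebpd, Amd1, Amd2 and Lum. With no filter 42 were lost and with the filter of 0.1 RPKM 12. Of the 14 named genes not called, Chrng, Musk, Myog, Gadd45a, Sln, Krt8, Fbxo32, Dhrs7c and Ppargc1a were called with arrayWeights, Musk and Krt8 with TPM, Musk as deposited, and some when 1 library was left out (Musk and Sln without BALB/c left 1, Musk without C57BL/6 right 1, Gadd45a without BALB/c right 1, and Chrng, Krt8 and Fbxo32 without BALB/c right 2).

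The labels do not say whether left and right libraries that share a number come from the same mouse. In BALB/c the deposited column names of both legs use the same numbers and skip the same one. The high erythroid sums were in libraries 1 and 2 of both BALB/c legs. Same-number correlations of deviations ran from -0.0015 to 0.24, 2 of 6 pairs were over 0.1, and 6 of 12 libraries correlated best with their own number. Pairing was therefore left undecided. With the number as a replicate block 379 genes were higher and 384 lower, 605 of them shared with the 936, and 12 of the 69 named calls were lost, those of Myh7, Rapsn, Actn3, Pgm1, Map1lc3a, Tfeb, Lamp2, Eif4ebp1, Slc3a2, Asns, Gdf11 and Tap1. Low recovered reads limited Chrna7.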
